A study of Gallus gallus with 6 samples.

Results

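The T-box transcription factors of mesoderm were followed in cells sorted from chick embryos, as the 9 genes TBXT, TBX6, EOMES, TBX2, TBX3, TBX4, TBX5, TBX18 and TBX20. Members were set by gene name, with earlier results of these data known, as the probe sets that the array annotation gives to 1 of these genes, joined by gene ID to current symbols. All 9 genes had at least 1 probe set, and none was absent from the array. They were read by 12 of the 38439 probe sets, 3 of them for TBX5 and 2 for TBX20, out of 13009 named genes in all. A further probe set, annotated to both TBX2 and TBX4, was not counted.

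T-box proteins share a DNA-binding domain, the T-box, named after the mouse gene T (Brachyury, now TBXT), and act as activators or repressors of the genes they bind. In the mouse gastrula, TBXT and EOMES act in and near the primitive streak and TBX6 in the presomitic mesoderm that leaves it. The others are best known from later mesoderm, namely the heart, the limb buds, the lateral plate and the somites, and blood and endothelial precursors arise from mesoderm that passes through the posterior streak.

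Each chick embryo received 2 constructs by electroporation at HH3, the reporter Hb-eGFP and the marker pCAGGS-RFP, and cells were taken at HH5-6 from 3 pools, each of 4 embryos. In Hb-eGFP, according to the sample labels, a fragment of the chick Cerberus regulatory region from -255 to -204 bp and a human beta-globin minimal promoter drive eGFP, whereas a figure legend names a related version of the reporter for these embryos. RFP is driven by the ubiquitous CAGGS promoter. The eGFP+ cells, called Hb-eGFP+ here, and the eGFP-/RFP+ cells, called RFP+ control, were sorted at the same time, giving 3 samples of each. The control cells are all electroporated cells without detected eGFP, of whatever tissue, and cells of the tissue in which the enhancer is active may be among them. Each sample was hybridized to 1 Affymetrix Chicken Genome Array, and the values are dChip expression indices, which are linear signal intensities.

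Array medians were 87.7 to 91.1 and Spearman correlations between arrays of a group 0.983 to 0.991. GFP had a mean intensity of 17083 in Hb-eGFP+ and 926 in control cells. Of 10 markers of hemangioblasts, blood and endothelium, 9 were higher in Hb-eGFP+ cells and none was lower, GATA2 being the one not called, against 5.74% higher and 7.52% lower among all 13009 genes. The only probe set of GATA2 had means of 74.2 in Hb-eGFP+ and 64.9 in control cells, below the array medians. A difference in its transcript may not be visible there. Each marker was read by its brightest probe set, and several called markers, here and in the groups that follow, had other probe sets without that call. None of the markers of neural plate, endoderm, paraxial mesoderm, non-neural ectoderm or cardiac mesoderm was higher, and 7 of 8, 4 of 6, 6 of 7, 5 of 6 and 2 of 7 were lower. All marker groups were chosen with earlier results of these data known. Most of the hemangioblast, blood and endothelium markers, and some of the others, were selected by the study on these same arrays. The direction of the markers is therefore not independent evidence of what the cells are. One array stood apart in the signals that concern EOMES, as given with that gene. No raw scans were analysed, and the number of arrays limits the precision.

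TBXT was lower in Hb-eGFP+ cells than in control cells, and it kept a strong signal in both populations. No other T-box gene of the 9 was called in either direction. The signal of TBX6, TBX2, TBX3, TBX4, TBX5 and TBX20 lay low, 7 of their 9 probe sets being below the 90th percentile of the reporter-gene control probe sets on every array and 2 on 5 of 6, whereas EOMES differed widely between arrays of a group and TBX18 was slightly above that level without a call. Of the 12 probe sets, 1 was called lower and 0 were called higher (limma, an unpaired linear model over all 38439 probe sets, adjusted p under 0.05), against a background of 5.05% lower and 4.02% higher among all probe sets. At 1 of 12, or 8.33%, the share of called members was near the 9.07% of all probe sets in either direction, so it says nothing particular about these genes. At an unadjusted p under 0.05, 1 was higher and 1 lower. The share of all probe sets at that level was not taken, so these counts cannot be read as many or few. The median log2 fold change was 0.04 over the 12 probe sets and 0.02 over all probe sets.

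**Figure D1:**
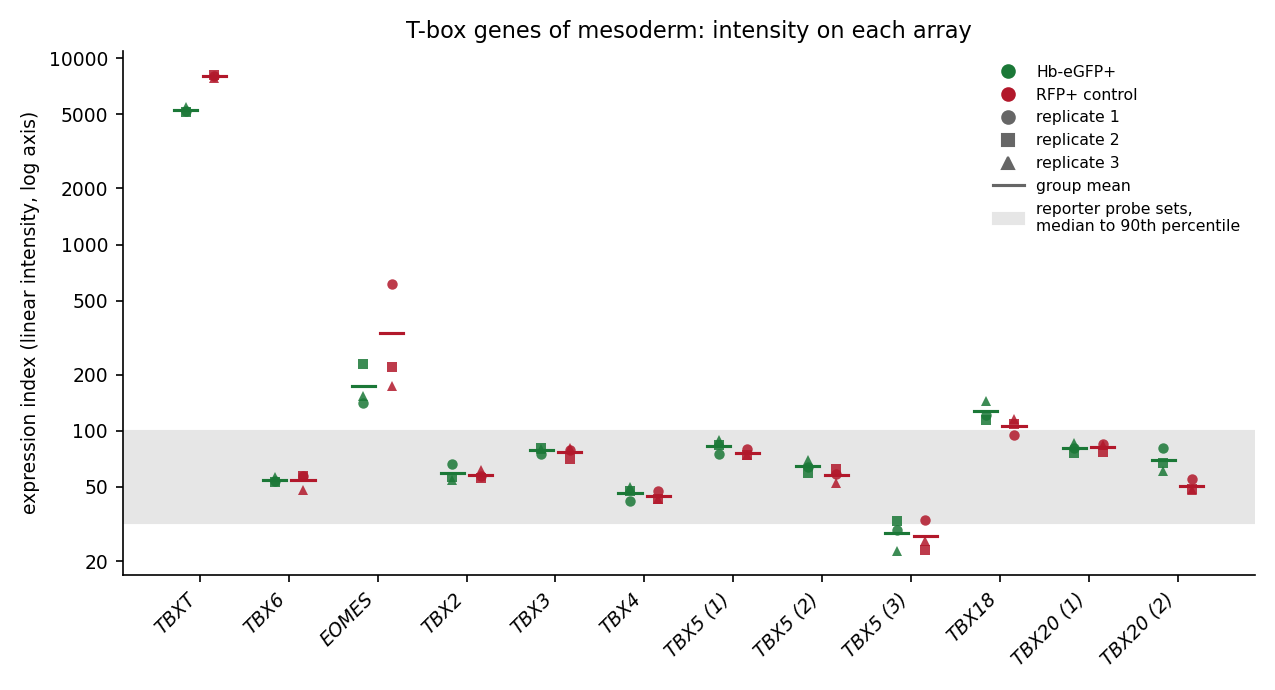
Expression index (linear intensity, on a log axis) of the 12 probe sets of the 9 T-box genes on each of the 6 arrays, with Hb-eGFP+ in green, RFP+ control in red, symbols for the replicates and bars for group means; the grey band runs from the lowest median (31.9) to the highest 90th percentile (100.3) of 56 reporter-gene control probe sets. TBXT separates into values of 5148 to 5487 and 7854 to 8175, EOMES has 1 high control array, and most other probe sets lie in the band; levels of different probe sets are not comparable with each other.

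TBXT (gene ID 395782) encodes Brachyury, which is required in mouse and zebrafish for posterior mesoderm and notochord. Its intensity was 5238, 5148 and 5487 in Hb-eGFP+ replicates 1, 2 and 3 and 7983, 8175 and 7854 in RFP+ control replicates 1, 2 and 3. All 3 Hb-eGFP+ arrays were thus below all 3 control arrays, with a gap far wider than the range within either group. The means were 5291 ± 176 (SD, n = 3) and 8004 ± 161 (SD, n = 3), so that Hb-eGFP+ cells had 66.1% of the control signal. The log2 fold change was -0.60 (standard error 0.07, 95% interval -0.77 to -0.42, adjusted p = 0.0026 from limma). By the methods' rule, which asks that the lower 90% bound of the ratio exceed 1.7, TBXT was not called, since the ratio of control to Hb-eGFP+ was 1.51 and its lower bound 1.46. By that rule 0 of the 12 probe sets were called, against 2.02% of all probe sets (0.718% higher and 1.30% lower). In these bulk samples, fewer cells with the transcript and less transcript per cell cannot be told apart. With TBXT, 6 of the 7 paraxial mesoderm markers were lower in Hb-eGFP+ cells, against 7.52% of all genes. The study had selected MSGN1, DLL1 and FOXC2 of these markers on the same arrays. The summed intensity of the 7 was 1245 to 1438 on the Hb-eGFP+ arrays and 9859 to 10292 on the control arrays. That sum leans on DLL1 and MSGN1, which had the highest control means (3566 and 2984). Of these markers, FOXC1 was at the reporter level in Hb-eGFP+ cells, with a mean of 24.9. TCF15, FOXC2, CYP26A1 and MEOX1 had Hb-eGFP+ means from 100 to 107, near the 90th percentile of the reporter probe sets. The part of paraxial mesoderm cells in the TBXT difference was not tested.

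TBX6 (gene ID 395792) is listed in RefSeq with the older chick name Tbx6L. The gene named Tbx6 in mouse is required for paraxial mesoderm, and whether this chick gene is its counterpart was not examined. The chick probe set read 53.7, 53.2 and 56.3 in Hb-eGFP+ and 57.5, 57.1 and 48.2 in control replicates 1, 2 and 3. The groups overlapped, and every value was below the median of its own array and below the 90th percentile of the reporter probe sets. The log2 fold change was 0.01 (95% interval -0.21 to 0.23, adjusted p = 0.97). At a signal this low, a difference in the transcript may not be visible as a difference in intensity.

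EOMES (gene ID 428443), a factor needed in mouse for mesoderm to leave the streak and for definitive endoderm, read 142, 228 and 153 in Hb-eGFP+ replicates 1, 2 and 3. The control replicates 1, 2 and 3 read 613, 220 and 174. The groups overlapped, and control replicate 1 was 2.78 times the higher of the other control arrays. Over all arrays the log2 fold change was -0.75 (standard error 0.44, 95% interval -1.79 to 0.29, adjusted p = 0.36), the widest interval of the 12 probe sets, and without control replicate 1 it was -0.20 (adjusted p = 0.67). The inverse ratio of the group means was 1.92 with a lower bound of 0.603. Control replicate 1 had 151 probe sets, of those above the median intensity, at least 2-fold above both other arrays of its group. The other arrays had 81 (Hb-eGFP+ replicate 2), 7 (control replicate 3), 2 (Hb-eGFP+ replicate 3), 1 (control replicate 2) and 0 (Hb-eGFP+ replicate 1). Control replicate 1 and Hb-eGFP+ replicate 2 shared 15 of these probe sets. EOMES was among the 151 but not among the 81. In the other direction, control replicate 3 had 53 such probe sets at least 2-fold below both other arrays of its group, control replicate 2 had 8, control replicate 1 had 1 and each Hb-eGFP+ array 0. Of 127 measured genes in the related and marker lists used here, 1 was among the 151, the T-box gene TBX1. The 151 were out of 19219 probe sets above the median intensity. The 127 genes were of any intensity and mostly not T-box genes, and 102 of the 151 probe sets were given to 1 gene. The shares are therefore not of like sets, and nothing particular about T-box genes is read from them. The part of whatever sets control replicate 1 apart in the EOMES value was not tested.

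TBX2 and TBX3 encode closely related repressors that act in the heart and the limb buds. TBX2 (gene ID 373990) read 66.3, 56.5 and 54.6 in Hb-eGFP+ and 57.6, 55.6 and 61.4 in control replicates 1, 2 and 3. TBX3 (gene ID 374202) read 75.2, 80.7 and 80.3 in Hb-eGFP+ and 78.5, 71.0 and 81.1 in control replicates 1, 2 and 3. In both genes the groups overlapped, and the log2 fold changes were 0.02 for TBX2 (95% interval -0.21 to 0.25, adjusted p = 0.93) and 0.04 for TBX3 (95% interval -0.16 to 0.24, adjusted p = 0.85). Every value lay below the 90th percentile of the reporter probe sets on its array, where a difference in the transcript may not be visible.

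TBX4 and TBX5 are best known from the hindlimb and from the forelimb and heart. In the RefSeq table of the chicken assembly GRCg7b, TBX2 and TBX4 lie on the same chromosome with 2 other genes between them, and TBX3 and TBX5 on the same chromosome with 1. TBX4 (gene ID 373989) read 42.0, 47.4 and 49.8 in Hb-eGFP+ and 47.6, 43.0 and 42.9 in control replicates 1, 2 and 3, with a log2 fold change of 0.06 (95% interval -0.17 to 0.28, adjusted p = 0.77). The 3 probe sets of TBX5 (gene ID 373988) all overlapped between the groups. One read 74.8 to 89.8 in Hb-eGFP+ and 73.9 to 79.6 in control cells, another 59.7 to 69.7 and 52.4 to 62.6, and the last 22.6 to 32.7 and 22.9 to 33.3. Their log2 fold changes were 0.12, 0.16 and 0.05, with adjusted p of 0.49, 0.41 and 0.90. None of the TBX5 readings gave a difference beyond the spread between arrays, and the 95% interval of the last probe set was -0.37 to 0.47. TBX4 and every TBX5 probe set lay below the 90th percentile of the reporter probe sets on at least 5 of 6 arrays. At such a signal, a difference in the transcript may not be visible.

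TBX18 (gene ID 395104), a gene known in mouse from the anterior part of each somite and the venous pole of the heart, was one of 3 members, with TBXT and EOMES, whose probe set lay above the median of all probe sets. It read 122, 115 and 144 in Hb-eGFP+ and 94.8, 108 and 116 in control replicates 1, 2 and 3. Control replicate 3 lay within the Hb-eGFP+ range. The log2 fold change was 0.26 (standard error 0.12, 95% interval -0.02 to 0.53, adjusted p = 0.25).

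The probe sets of TBX20 (gene ID 373943), a gene needed in mouse for heart growth, did not read alike. The one with the higher mean signal, which stands for the gene in counts over genes, read 81.4, 76.0 and 85.6 in Hb-eGFP+ and 84.7, 76.5 and 83.5 in control replicates 1, 2 and 3, with a log2 fold change of -0.01 (95% interval -0.21 to 0.19, adjusted p = 0.96). The second probe set read 80.6, 67.2 and 61.2 in Hb-eGFP+ and 55.2, 48.8 and 47.9 in control replicates 1, 2 and 3. On this probe set every Hb-eGFP+ array was above every control array, with a log2 fold change of 0.46 (standard error 0.12, 95% interval 0.17 to 0.74), and it missed the threshold at an adjusted p = 0.061 from limma. It passed in 2 of 12 alternatives. These were median centring of the arrays (0.47, adjusted p = 0.045) and an intensity trend with robust variances (0.46, adjusted p = 0.028). With each array left out in turn it did not pass, at 0.35 to 0.54 and an adjusted p of 0.068 to 0.15 from limma. All 6 intensities of this probe set lay below the 90th percentile of the reporter probe sets on their arrays. Arrays of the groups did not overlap for 2 of the 12 probe sets, this one and TBXT, against 30.0% of all probe sets.

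**Figure D2:**
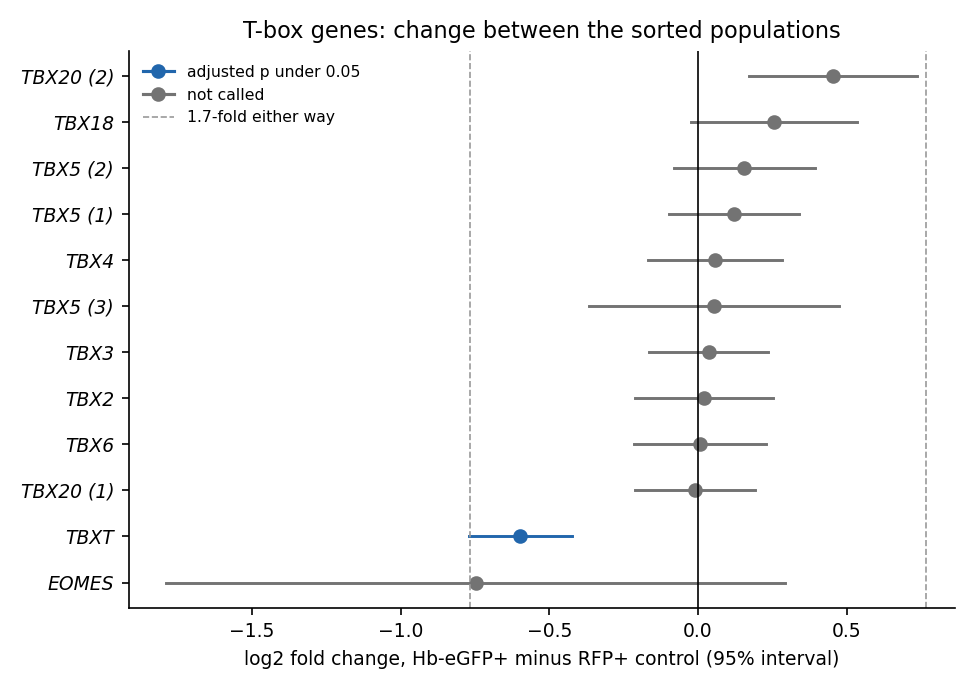
Log2 fold change (Hb-eGFP+ minus RFP+ control, horizontal axis) of the 12 T-box probe sets with 95% intervals from limma, ordered from highest to lowest; blue marks an adjusted p under 0.05, dashed lines mark 1.7-fold, and numbers in brackets give the probe sets of TBX5 and TBX20 in the order of the text. TBXT at -0.60 is the one called, and the interval of EOMES, from -1.79 to 0.29, is the widest.

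In the order of fold changes, EOMES (-0.75) and TBXT (-0.60) had overlapping intervals, TBXT and the next, the TBX20 probe set that stands for the gene, did not, and each of the remaining neighbours overlapped. Of the 11 probe sets that were not called, 10 had 95% intervals inside a 1.7-fold change in either direction, with bounds from -0.37 to 0.74 on the log2 scale, and EOMES did not. These bounds are on signal intensity. Of the 12 probe sets, 9 lay below the median intensity of all probe sets, and 3.90% of all such dim probe sets were called against 14.2% of the brighter ones.

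Of 29 measured genes in a list drawn up here for the streak and presomitic mesoderm beside T-box factors, 18 were lower in Hb-eGFP+ cells and 0 higher. The shares among all 13009 genes, each read by its brightest probe set, were 7.52% lower and 5.74% higher. For some of the 18, other probe sets of the gene were not called lower. The median log2 fold change of the 29 was -0.81, and that of all genes 0.01. Like the other lists here, it was drawn up with earlier results of these data known. It also holds genes that the study had already selected on these arrays (FST, MSGN1, DLL1, WNT8A and FOXC2). The direction of the listed genes, and its contrast with all genes, is therefore not independent evidence. FST, the gene of follistatin, a secreted antagonist of activin, went from 744 ± 23.0 (SD, n = 3) to 38.7 ± 2.45 (SD, n = 3), a log2 fold change of -4.26 (adjusted p = 2.5e-06 from limma). Its Hb-eGFP+ signal was near the reporter level, so the size of that fold is not exact. MSGN1, a presomitic bHLH factor that is a target of TBX6 and Wnt signals in mouse, changed by -3.87 (95% interval -4.10 to -3.64) and CYP26A1, which breaks down retinoic acid, by -3.45 (95% interval -3.70 to -3.19). DLL1, a Notch ligand and TBX6 target in mouse, changed by -2.39 (95% interval -2.65 to -2.14). Of the 18 lower genes, 14 had 95% intervals wholly below that of TBXT and 4 overlapped it.

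Of the 11 genes that were not called, 8 had intervals wholly above that of TBXT. Of these, CDX2, CDX4, WNT5A and RIPPLY1 had group means from 333 to 5913. FGF4, HES5, NODAL and LEF1 had group means from 66.3 to 133, those of FGF4 being below the array medians. In these dimmer genes, a difference in the transcript may not be visible as a difference in intensity. CDX4, a caudal-type homeobox gene of the posterior embryo, read 5913 ± 146 (SD, n = 3) in Hb-eGFP+ and 5519 ± 250 (SD, n = 3) in control cells, a log2 fold change of 0.10 (95% interval -0.08 to 0.28, adjusted p = 0.48). MIXL1, a streak homeobox gene, had a log2 fold change of -0.37 (95% interval -0.60 to -0.14, adjusted p = 0.060). All of its Hb-eGFP+ arrays were below all of its control arrays, as they were for 14.1% of all probe sets. Among the genes not called, TCF15 was also lower without overlap, and CDX2 and WNT5A were higher without overlap.

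**Figure D3:**
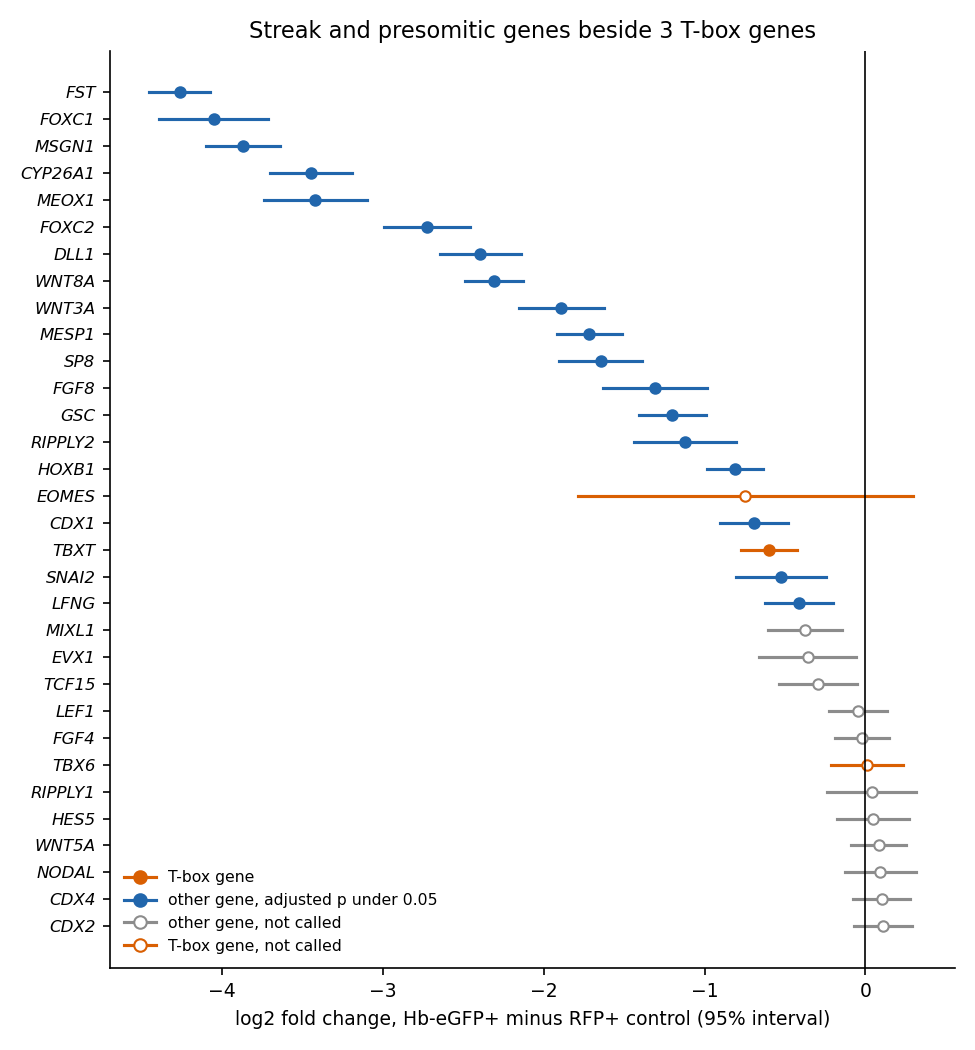
Log2 fold change (Hb-eGFP+ minus RFP+ control) with 95% intervals for 29 streak and presomitic genes and, in orange, TBXT, TBX6 and EOMES; filled points passed an adjusted p of 0.05 and open points did not. The list runs from FST at -4.26 to CDX2 at 0.11, with TBXT at -0.60 and TBX6 at 0.01.

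For the heart and lateral plate, 28 genes were measured of a list drawn up here beside TBX5, TBX20, TBX2 and TBX3. Of these, 19 were not called, 7 were lower and 2 higher, against 7.52% lower and 5.74% higher among all genes. The median log2 fold change of the 28 was -0.05. The LIM homeobox gene ISL1 of cardiac progenitors fell to 99.1 ± 3.52 from 593 ± 25.3 (SD, n = 3 each; log2 fold change -2.58, adjusted p = 7.8e-06), followed by SALL1 (-2.39) and the homeobox gene ALX1 (-1.98). NKX2-5, a cardiac homeobox partner of TBX5 and TBX20, changed by -0.74 (adjusted p = 0.0033). The Hb-eGFP+ means of ISL1 and NKX2-5 (94.3) were near the 90th percentile of the reporter probe sets, and neither fold is exact in size. The first of the higher genes was PITX1, a homeobox gene that acts upstream of TBX4 in the hindlimb, with 673 ± 92.9 against 243 ± 43.9 (SD, n = 3 each; log2 fold change 1.48, adjusted p = 0.0011), with both probe sets called. PITX1, too, had been selected by the study on these arrays. The other was MSX1, a homeobox target of BMP signals (0.42, adjusted p = 0.013), and the number of higher genes was 1 when Hb-eGFP+ replicate 1 or 3 or RFP+ control replicate 1 was left out.

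BMP signals, which induce TBX2 and TBX3 in several tissues, were represented by 20 measured genes, with a median log2 fold change of -0.03. Of the 20, 3 were higher and 5 lower, against 5.74% higher and 7.52% lower among all 13009 genes. ID1, a direct BMP target, was higher at 2421 ± 38.2 against 1485 ± 41.4 (SD, n = 3 each; log2 fold change 0.71, adjusted p = 0.0011). The BMP antagonist gene CHRD (-1.66, adjusted p = 0.00048) and SMAD9, which encodes a BMP-regulated SMAD (-0.78, adjusted p = 0.00068), were lower. The 5 lower genes became 3 without Hb-eGFP+ replicate 3 or without RFP+ control replicate 1. TBX2 and TBX3 themselves were not called, at a signal so low that a difference in the transcript may not be visible.

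Among 13 measured genes for cofactors of T-box proteins, 2 were higher and 1 lower, against 5.74% higher and 7.52% lower among all genes. The median log2 fold change of the 13 was -0.03. SMAD2, a nodal and activin transducer that works with EOMES in mouse, was lower (-0.57, adjusted p = 0.0078), and the other nodal transducer SMAD3 (0.36, adjusted p = 0.029) and the methyltransferase gene SETD7 (0.35, adjusted p = 0.026) were higher, each by 1 of 2 probe sets. Both higher calls were lost when any 1 of the 6 arrays was left out.

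Of the other T-box genes, 7 were measured by 16 probe sets. Of the 7, 1 was lower and none higher, against 7.52% lower and 5.74% higher among all genes. TBX22, known from the palate in mammals, read 112, 118 and 117 in Hb-eGFP+ and 241, 179.7 and 170.1 in control replicates 1, 2 and 3 (log2 fold change -0.75, standard error 0.14, adjusted p = 0.015). Its groups did not overlap, and its call was lost when either Hb-eGFP+ replicate 1 or replicate 3 was left out. TBX1, of pharyngeal mesoderm and endoderm, also read high on control replicate 1 (440.02, with 178 and 219 on the other control arrays and 150.02 to 177 in Hb-eGFP+). It was not called (-0.70, adjusted p = 0.22). TBX19, which RefSeq lists with TBXT as an older synonym and which was kept apart from TBXT here by gene ID, had a log2 fold change of -0.07 (adjusted p = 0.65).

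The genes with the profile most like that of TBXT over the 6 arrays were PIH1D3, ZDHHC21 and RAB10L. Likeness was the root mean square difference of log2 intensities after each probe set was centred on its own mean, and it was 0.03, 0.04 and 0.04 for these, the smallest among 14510 probe sets of other named genes above the median. Their log2 fold changes were -0.61, -0.56 and -0.60. With 2 groups of 3 arrays, such a likeness reflects mostly the size of the group difference. The same measure for EOMES, chosen after its values were seen, gave WASF2 (0.06), FEM1C (0.14) and ADGRG3 (0.14), with readings of 567, 368 and 302 on control replicate 1 and 77.2 to 178 on the other control arrays.

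**Figure D4:**
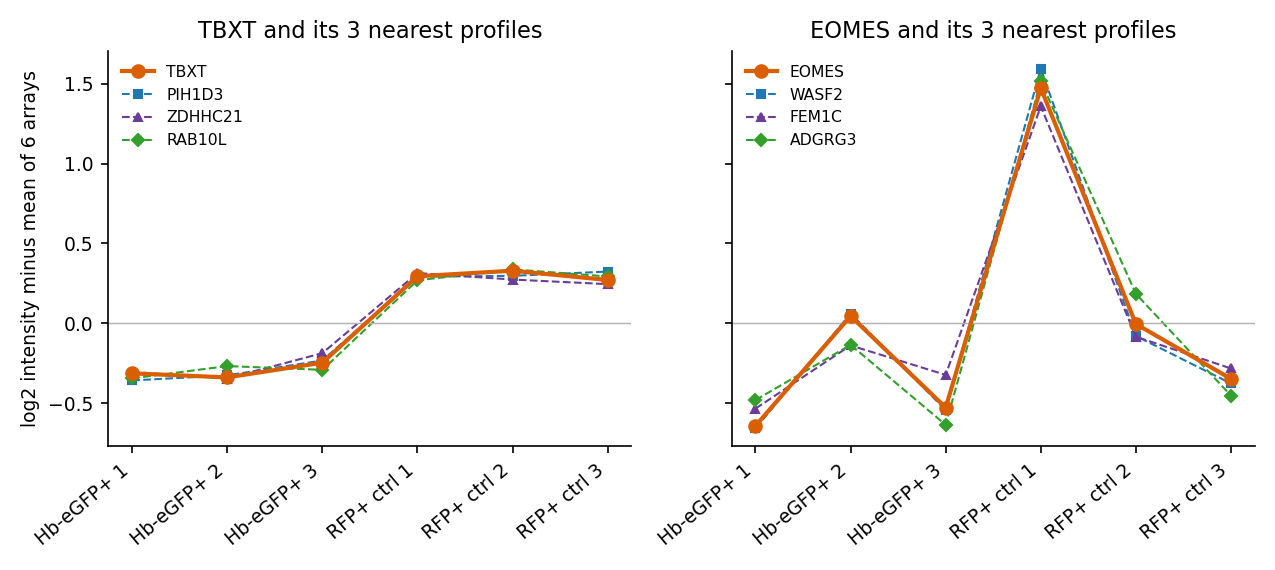
Log2 intensity minus the mean of the 6 arrays (vertical axis) on each array for TBXT (left) and EOMES (right), each with the 3 probe sets of other named genes whose profiles are nearest. The TBXT group steps up from the Hb-eGFP+ to the RFP+ control arrays, whereas EOMES and its neighbours are highest on RFP+ control replicate 1 alone.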

How the data were processed

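Per the labels and the study's methods, 40 ng of total RNA per sample was amplified, labelled and hybridized. The authors used GCOS 1.4 for the scans and computed Perfect Match-only expression indices in dChip from normalized arrays. The deposited values are linear signal intensities, 1 per probe set and array. No source used here names the array normalization.

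Here the intensities were taken to log2 (0 values lay below 1) and fitted in limma (lmFit and eBayes, two-sided, without covariates, so that any pool shared by an Hb-eGFP+ and a control sample is ignored) across the 38439 probe sets. P-values were adjusted by Benjamini-Hochberg and read at 0.05. They set each difference against the spread between these samples, with variances moderated across the probe sets. For the methods' rule, the 90% bound was built from the spread between arrays, since dChip's own errors were not used here. Both procedures were tested on simulated data. Array medians gave a two-sided exact permutation p of 0.4, the smallest possible being 0.1. In counts over genes, each gene has the probe set of highest mean log2 intensity.

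The platform annotation gave 1 gene to 27168 probe sets, several to 177 and none to 11094, and the gene IDs of 26853 probe sets were in the RefSeq table of GRCg7b. Members, lists, tests and naming rule were chosen with earlier results of these data known. The rule names all members and, from each list, the 3 called genes with the smallest adjusted p plus the leading one in either direction. It also names the profiles nearest to the largest called rise and fall among members. It does not cover DLL1, WNT8A, FOXC2, MEOX1, CDX4, CDX2, WNT5A, RIPPLY1, FGF4, HES5, NODAL, LEF1, TCF15, MIXL1, NKX2-5, MSX1, FOXC1, GATA2, TBX1, TBX19 and the profiles nearest to EOMES, picked with their values in view. A planned description of sequences was not made. Software was R 4.3.3 with limma 3.58.1, and Python 3.11.15 with pandas 2.3.3.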

Additional observations from a re-analysis of the deposited data

How the results depend on the processing

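TBXT stayed lower under all 13 alternatives, from -0.62 to -0.58 on the log2 scale, and was called in 12. With a minimum fold of 1.7 in the test, the called counts were 0 of the member probe sets and 0 of the member genes, 94 higher and 231 lower of all probe sets, 0 of the other T-box genes, 11 lower of the streak list, 0 higher and 3 lower of the heart list, 0 higher and 1 lower of the BMP list and 0 higher and 0 lower of the cofactors. Median centring gave 1 higher member probe set (TBX20, second probe set) and an intensity trend with robust variances also 1. The lower cofactors numbered 2 after quantile normalization, 4 without dim probe sets, 4 with an offset of 50, 4 with the intensity trend and 3 with the mean over probe sets. TBX6 turned to -0.0055 after quantile normalization and the first TBX20 probe set to 0.0024 after median centring. Leaving out each array in turn, probe sets called ranged from 811 to 1296 higher and from 1102 to 1721 lower, the other T-box genes lower from 0 to 1, the heart list higher from 1 to 2, the BMP list lower from 3 to 6, and the cofactors from 0 to 0 higher and from 1 to 2 lower. Fold changes that turned sign in this way, none of them called, ranged from -0.065 to 0.076 for TBX2, -0.020 to 0.077 for TBX3, -0.062 to 0.21 for the last TBX5 probe set, -0.075 to 0.052 for TBX6 and -0.056 to 0.034 for the first TBX20 probe set. The causes were not tested.

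With the replicate block, 900 probe sets were higher and 1248 lower, the heart list had 1 higher and the cofactors 0 higher, and no member's call changed. Both populations were sorted at the same time from the pools, so samples of the groups may share a pool, but no source says which, and the replicate numbers were not taken as pairs. Deviations from the group means correlated at -0.20, -0.08 and 0.22 between same-numbered samples, and not every sample correlated best with its own number. The largest correlation was 0.33, between Hb-eGFP+ replicate 2 and RFP+ control replicate 1. By the lower bound, 276 probe sets were higher and 501 lower. Without an interval, 462 were higher and 1178 lower, with 1 member (EOMES) among the lower, and with 50 added 174 and 323. Of the 12 member probe sets, 9 are dim, and small changes in them may be missed.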
